A study of Mus musculus with 8 samples.

Results

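The aryl hydrocarbon receptor (AhR) pathway was examined through 6 genes, namely *Ahr* and its DNA-binding partner *Arnt*, the repressor *Ahrr*, and the target genes *Tiparp*, *Cyp1a1* and *Cyp1b1*. They were taken by symbol from the 54838 genes counted in each library, and all 6 were found. RNA had been sequenced from splenic natural killer (NK) cells of healthy WT FVB/n mice (hNK, 4 libraries) and of MMTV-PyMT mice (teNK, 4 libraries). The design sets the NK cells of mice with a tumour against those of healthy donors. In MMTV-PyMT mice the mouse mammary tumour virus promoter drives the polyoma middle T oncogene, and mammary tumours follow. Cells of both groups were sorted as CD45+/CD49b+/CD3- and then kept in medium with added cytokines for 12 to 16 h, so every value describes cells after culture. Ages, the strain of the PyMT mice, animals per library and the identity of the cytokines are not given in the sources used here. The genes were chosen by name as a pathway, but also selected on their measured levels in teNK against hNK in these same libraries. The differences between the groups are therefore given as descriptions, without a test.

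AhR is a transcription factor of the bHLH-PAS family that is held in the cytoplasm by a chaperone complex until it binds a small ligand, such as a dioxin or a product of tryptophan. It then enters the nucleus, pairs with ARNT and binds DNA at a short motif with the core GCGTG, turning on genes of xenobiotic metabolism together with *Ahrr* and *Tiparp*. Those last genes encode proteins that restrain the receptor, AHRR by competing for ARNT and DNA, and TIPARP (also called PARP7) by mono-ADP-ribosylation. In lymphoid cells AhR is best known in innate lymphoid cells of the gut and in helper T cells, and it is also expressed by NK cells.

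Reads on genes numbered 5202131 to 12419324 per library in hNK and 13111043 to 16209895 in teNK, and a floor of 3 reads in a library stood at 0.238 to 0.542 CPM (reads scaled to library size with TMM) in hNK and 0.190 to 0.241 CPM in teNK. Repeated runs on separate lanes are mentioned for teNK but not for hNK, and this layout and the group cannot be told apart. All 8 NK markers were detected, with summed levels of 5858 to 6469 CPM in hNK and 10041 to 10283 CPM in teNK, and 7 were higher in teNK and 1, *Eomes*, lower (786 ± 38.2 and 639 ± 29.2 CPM). The largest share of that sum was the pan-leukocyte gene *Ptprc*, at 3567 ± 132 CPM in hNK and 5333 ± 115 CPM in teNK. Summed markers of several other cell types, but not of all, were higher in teNK. The summed level of 6 B cell genes was 0.635 to 4.78 CPM in hNK and 29.6 to 49.5 CPM in teNK, and that of 7 platelet and megakaryocyte genes was 17.7 to 41.6 and 163 to 281 CPM. The 7 genes of monocytes, macrophages and neutrophils summed to 0.165 to 0.915 CPM in hNK and 7.24 to 16.0 CPM in teNK, and the 6 dendritic cell genes to 12.6 to 17.3 and 69.8 to 90.7 CPM. Of the dendritic cell sum, *Itgax*, which NK cells can also express, rose from 7.61 ± 2.08 to 70.0 ± 10.1 CPM, while *Flt3* had 9 and 7 reads, *Siglech* 4 and 9, and *Xcr1* and *Clec9a* none in hNK and 4 and 5 in teNK. Basophil and mast cell genes, checked because basophils carry CD49b, summed to 0.0831 to 1.08 CPM in hNK and 1.78 to 3.52 CPM in teNK. Most of the teNK sum was *Gata2* (0.0611 ± 0.0787 CPM in hNK and 2.19 ± 0.692 CPM in teNK). *Mcpt8* had 7 reads in hNK and 9 in teNK, *Cpa3* 1 and 20, *Fcer1a* 0 and 2, and *Prss34* 0 and 4. T cell genes summed to 18.3 to 41.2 CPM in hNK and 24.9 to 33.6 CPM in teNK, most of it *Cd3g*. Of the 3 T cell genes tested, 1 was higher in teNK, *Cd3d* (2.25 ± 0.930 and 4.91 ± 0.527 CPM), and none was lower. The 5 genes of innate lymphoid cells (ILC2 and ILC3) summed to 113 to 130 and 105 to 115 CPM, most of it *Gata3*. The 6 endothelial and stromal genes summed to 84.0 to 120 and 103 to 112 CPM, most of it *Pecam1*. The groups overlapped in the T cell, innate lymphoid, and endothelial and stromal sums. The part of all these other cells in the pathway's values was not tested. The 5 mammary epithelial genes summed to 3.98 to 5.28 CPM in hNK and 0.254 to 0.884 CPM in teNK, nearly all of it *Epcam* (153 and 26 reads), with 7 and 8 reads of *Krt18* and none of *Krt5*, *Krt8* or *Krt14*. In bulk RNA of this kind, fewer cells that express a gene and less RNA per cell cannot be told apart.

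The start regions of the target genes are shown because the AhR-ARNT core motif can be read in them directly. The 250 bases before the RefSeq start (213 for *Tiparp*, up to its first exon in GENCODE) come from the RefSeq table for GRCm38.p6, the C57BL/6J reference and not the FVB/n sequence, and 5 of the 6 genes, all but *Ahr*, were matched in it. They are written 5′ to 3′ on the gene's strand, with capitals marking GCGTG or its reverse complement CACGC.
Ahrr (chr13:74292332-74292581, minus strand): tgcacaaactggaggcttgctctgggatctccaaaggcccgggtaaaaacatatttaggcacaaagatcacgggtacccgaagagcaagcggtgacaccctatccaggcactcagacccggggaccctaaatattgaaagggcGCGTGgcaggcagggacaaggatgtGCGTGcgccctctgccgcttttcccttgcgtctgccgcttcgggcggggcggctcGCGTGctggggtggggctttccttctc
Tiparp (chr3:65528197-65528409, plus strand): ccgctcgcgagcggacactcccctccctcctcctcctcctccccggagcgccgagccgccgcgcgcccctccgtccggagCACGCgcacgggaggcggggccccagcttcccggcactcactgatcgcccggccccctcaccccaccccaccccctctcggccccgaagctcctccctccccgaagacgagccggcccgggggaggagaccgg
Cyp1b1 (chr17:79715062-79715311, minus strand): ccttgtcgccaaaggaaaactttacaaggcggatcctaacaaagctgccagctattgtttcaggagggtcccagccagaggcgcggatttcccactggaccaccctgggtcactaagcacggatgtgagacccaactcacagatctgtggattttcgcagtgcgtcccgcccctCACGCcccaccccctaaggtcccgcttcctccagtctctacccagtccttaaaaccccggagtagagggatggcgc
Cyp1a1 (chr9:57697363-57697612, plus strand): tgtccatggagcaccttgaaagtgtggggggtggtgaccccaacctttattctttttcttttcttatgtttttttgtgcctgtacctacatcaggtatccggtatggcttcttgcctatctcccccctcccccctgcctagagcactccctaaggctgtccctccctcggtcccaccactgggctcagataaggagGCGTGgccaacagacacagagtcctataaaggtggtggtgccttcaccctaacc
By GENCODE, the *Cyp1a1* stretch also lies in an intron of a longer *Cyp1a1* transcript, the *Tiparp* stretch lies in an exon of the antisense pseudogene *4931440P22Rik*, and the other stretches overlap no exon. *Ahrr* held 3 core matches, at -107 to -103, -82 to -78 and -27 to -23 relative to the start. *Tiparp*, *Cyp1b1*, *Cyp1a1* and *Arnt* held 1 each, within windows of 300 bases that run to base 50 of the gene. Over all 32851 windows of that length in the table, 32.4% held the core on either strand and 3.92% held it 3 or more times. The windows with a match had a median GC content of 61% and those without one 49.7%, and the 5 windows of the pathway genes ranged from 54% (*Cyp1a1*) to 73.7% (*Tiparp*). The longer motif TNGCGTG, which contains the core, was found on either strand in 5.07% of all windows and, among these 5 genes, once, in *Ahrr*, at the match nearest the start. Among the genes of the pathway lists below, 29 of the 53 matched in the table (54.7%) held the core in at least 1 window, as did 35.2% of all its genes. The longer motif was held by 5 of the 53 (9.43%) and by 5.84% of all genes. These shares are not matched for GC content or expression, and the difference was not tested. A match is a description of the letters and does not show binding, and this window leaves out distal sites.

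*Ahr*, the receptor (ENSMUSG00000019256, chromosome 12, 35497974 to 35535038, minus strand, GRCm38), had 34.3, 41.9, 46.0 and 34.0 CPM in hNK replicates 1 to 4 and 20.1, 24.1, 22.5 and 21.9 CPM in teNK replicates 1 to 4. Every hNK library was above every teNK library, as in 22.4% of all tested genes (46.5% when either direction counts), and the nearest were hNK replicate 4 and teNK replicate 2. The mean was 39.0 ± 5.90 CPM in hNK and 22.1 ± 1.65 CPM in teNK (SD, n = 4), which as a log2 fold change is -0.82 ± 0.10 (SE). Behind these values were 1407 reads in hNK and 1251 in teNK. The gene shares 127 exonic bases with *Gm48236*, a noncoding gene on the other strand that had 23 reads in all libraries together.

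*Arnt* (ENSMUSG00000015522, chromosome 3, 95434388 to 95497240, plus strand), which encodes the partner that AhR shares with the hypoxia factors, was at about the same level in both groups. It had 101.1, 97.2, 91.7 and 86.5 CPM in hNK replicates 1 to 4 and 98.2, 104.5, 95.1 and 92.1 CPM in teNK replicates 1 to 4. The groups overlapped over most of their range. The means of 94.1 ± 6.37 and 97.5 ± 5.31 CPM gave a log2 fold change of 0.05 ± 0.07, a difference smaller than the spread between libraries of either group.

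*Ahrr*, the repressor (ENSMUSG00000021575, chromosome 13, 74211118 to 74292331, minus strand), had the largest difference of the 6 genes. It had 114, 115, 89 and 63 reads in hNK replicates 1 to 4 and exactly 1 read in each of the 4 teNK libraries, although those were sequenced more deeply. In CPM, hNK replicates 1 to 4 stood at 9.48, 9.13, 14.7 and 11.4 and the teNK libraries at 0.0635 to 0.0803, below the floor of 3 reads. The 381 reads in hNK and 4 in teNK gave a ratio of 148.5 per unit of library size, with an exact 95% Clopper-Pearson interval of 57.5 to 548 that covers counting error only. By fitted log2 fold change, 11 of the 13903 tested genes were further down in teNK, a rank that is as uncertain as this ratio. *Ahrr* passed the filter on low counts through the hNK libraries alone, since no teNK library reached the level of the filter, 0.783 CPM. Its spread within hNK was also the widest of the 4 genes tested, with a coefficient of variation of 22.75%, against 15.1% for *Ahr*, 10.96% for *Tiparp* and 6.76% for *Arnt*. It shares no exonic base with another annotated gene.

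*Tiparp* (ENSMUSG00000034640, chromosome 3, 65528410 to 65555518, plus strand), one of the target genes with 1 core match in the sequence shown, was abundant in both groups and lower in teNK. It had 174.4, 217, 181 and 174.3 CPM in hNK replicates 1 to 4 and 55.6, 52.3, 50.6 and 50.8 CPM in teNK replicates 1 to 4. All hNK libraries lay above 3 times the highest teNK library, and hNK replicate 2 was higher than the other 3. The means were 187 ± 20.5 and 52.3 ± 2.33 CPM, a log2 fold change of -1.84 ± 0.08 (3.57 times lower in teNK). In all, 1.96% of tested genes had a fold change as low as this or lower, and 8.27% had one as low as that of *Ahr*. *Tiparp* shares 223 exonic bases with the pseudogene *4931440P22Rik* on the other strand, which had 89 reads in all, against 6893 for *Tiparp* in hNK and 2963 in teNK.

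The cytochrome P450 genes, the classical readouts of AhR activity in liver and epithelia, were barely detected. *Cyp1a1* (ENSMUSG00000032315, chromosome 9, 57687928 to 57703824) had 1 read in each of hNK replicates 2 and 3 and no read in the other 6 libraries. *Cyp1b1* (ENSMUSG00000024087, chromosome 17, 79701537 to 79715061) had 2, 6, 2 and 1 reads in hNK replicates 1 to 4 and a single read in teNK, in replicate 2. hNK replicate 2 was thus the sole library with more than 3 reads of either gene. Outside that library *Cyp1b1* stayed under the floor of 3 reads in every library, so no fold is given for its totals of 11 and 1 reads. Neither gene passed the filter on low counts.

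**Figure D1:**
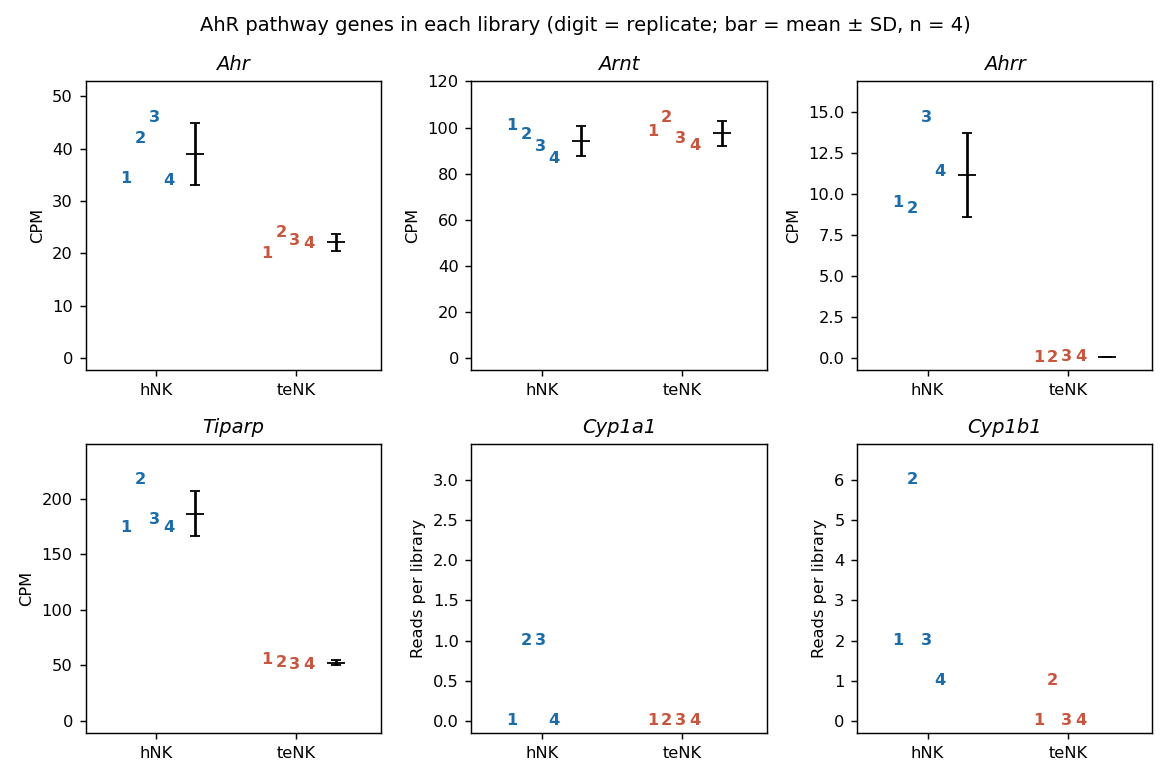
Each panel shows 1 gene, with the 4 hNK libraries (blue) and the 4 teNK libraries (red) drawn as their replicate digits against CPM, or against reads per library for *Cyp1a1* and *Cyp1b1*. Black bars are means ± SD. The groups are apart for *Ahr*, *Ahrr* and *Tiparp* and overlap for *Arnt*, and *Ahrr* is near 0 in all 4 teNK libraries.

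Over all genes, 51.9% of the 13903 tested were called in either direction and 25.6% were called lower in teNK (edgeR quasi-likelihood test, Benjamini-Hochberg adjusted p under 0.05). Of the 4 pathway genes tested, 3 were called lower and 1, *Arnt*, was not called. The count restates the contrast with which the genes were proposed, and nothing is read from it.

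Levels of different genes were compared per exon length as TPM, which divides reads by length before scaling to library size. In hNK the order was *Tiparp* (102.6 to 119 TPM), *Arnt* (27.7 to 33.0), *Ahr* (14.1 to 20.7) and *Ahrr* (2.30 to 4.32), and no neighbours in that order overlapped. In teNK *Arnt* (30.3 to 38.2 TPM) and *Tiparp* (30.6 to 35.1) overlapped and came first, followed by *Ahr* (8.60 to 11.4) and *Ahrr* (0.0184 to 0.0230). *Tiparp* stood at percentile 93.2 of the tested genes in hNK and 69.5 in teNK by mean TPM, while *Arnt* stood at 69.2 and 69.9. With the longest transcript of each gene as its length in place of merged exons, *Arnt* averaged 51.2 TPM in teNK and *Tiparp* 28.3, so *Arnt* then stood clearly above *Tiparp*, where the merged exon means were 33.2 and 32.7 TPM. In hNK they then averaged 47.7 and 97.3 TPM, with *Tiparp* still first.

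Within single libraries, the balance between the genes differed by group. Per length, *Tiparp* exceeded *Ahr* by 5.56 to 7.33 times in the hNK libraries and by 3.08 to 3.92 times in the teNK libraries. *Ahrr* reached 0.142 to 0.219 of the *Ahr* level in hNK and 0.00172 to 0.00233 of it in teNK. The teNK range rests on 1 *Ahrr* read per library, below the floor of 3 reads, and shows no spread of *Ahrr* itself. *Arnt* exceeded *Ahr* by 1.53 to 2.27 times in hNK and 3.23 to 3.77 times in teNK. These ratios rest on merged exon lengths: with the longest transcript the hNK means were 15.4 TPM for *Ahr*, 4.84 for *Ahrr* and 47.7 for *Arnt*, which puts *Ahrr* and *Arnt* higher relative to *Ahr*. The groups did not overlap in any of these ratios, which were formed from the same values as above and are no further evidence.

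**Figure D2:**
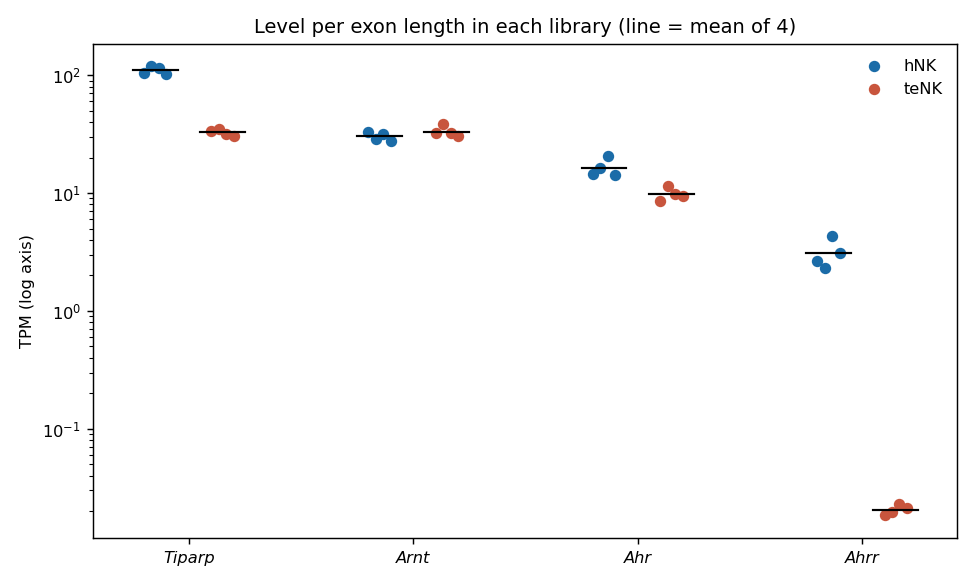
TPM of the 4 tested pathway genes on a log axis, with 1 point per library (hNK blue, teNK red) and a line at the mean of 4. *Tiparp* lies above *Arnt* in hNK and level with it in teNK, and *Ahrr* drops from 3.08 to 0.0206 TPM.

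The rest of the pathway was described with 6 lists holding 75 genes, of which 45 were tested, 21 had too few reads and 9 had no read. Of the 45, 12 rose in teNK (26.7%, against 26.4% of all tested genes) and 15 fell (33.3%, against 25.6%), and 18 were not called. The median log2 fold change was -0.07, beside -0.02 over all tested genes. The share that rose was thus near that of all genes. P-values below are from the edgeR test, adjusted over all tested genes.

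Among the partners, chaperones and coactivators of AhR, 6 of 14 tested genes rose (42.9%) and 2 fell (14.3%). Over all tested genes 26.4% rose and 25.6% fell. The median log2 fold change of the list was 0.09. *Hsp90aa1*, a cytosolic HSP90 that holds the unliganded receptor, rose from 290 ± 33.4 to 463 ± 55.6 CPM, with a log2 fold change of 0.68 ± 0.09 (adjusted p = 1.55e-05). *Ptges3*, the HSP90 cochaperone p23 of the same complex, fell from 201 ± 13.5 to 146 ± 7.67 CPM (-0.46 ± 0.06, adjusted p = 1.78e-05). *Nrip1*, a corepressor of nuclear receptors that also binds AhR, rose from 123 ± 10.3 to 184 ± 5.48 CPM, and the coactivator gene *Ncoa2* rose from 261 ± 8.90 to 319 ± 5.15 CPM, by 0.29 ± 0.06 on the log2 scale. These changes were all under 2-fold, and hNK and teNK were apart in each of the 4 genes, as they were in 46.5% of all tested genes.

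Among the other bHLH-PAS genes, which include further users of ARNT and the clock factors, 1 of 5 tested genes rose and 2 fell, with a median of -0.07. These are shares of 20% and 40%, beside 26.4% and 25.6% of all tested genes. *Epas1*, which encodes the hypoxia factor HIF-2 alpha, rose from 2.96 ± 0.907 to 7.84 ± 1.81 CPM (2.83 times higher, adjusted p = 3.88e-05). *Npas2*, a clock factor, had 52 reads in all hNK libraries together and, like *Ahrr*, 1 read in every teNK library. Its level per unit of library size was 20.3 times higher in hNK (exact 95% interval 7.46 to 77.2, for counting error only). It too passed the filter through the hNK libraries alone. *Arntl* (BMAL1) fell by 0.32 ± 0.09 on the log2 scale, from 52.2 ± 7.10 to 42.0 ± 3.502 CPM (adjusted p = 0.00773), with 1 hNK and 1 teNK library crossing over: hNK replicate 3 had 45.4 CPM and teNK replicate 2 had 47.2.

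In the list of xenobiotic enzymes and their regulator, 3 of 10 genes were tested, and 4 of the other 7, *Cyp1a2* and *Aldh3a1* among them, had no read. *Nqo1*, a quinone reductase under both AhR and the oxidative stress factor NRF2, had 375, 223, 140 and 160 reads in hNK replicates 1 to 4. The teNK libraries had 2 or 3 reads each, which leaves them at or under the floor. *Nfe2l2*, which encodes NRF2, fell from a range of 150.3 to 184 CPM to one of 109 to 127.5 CPM (-0.48 ± 0.07, adjusted p = 3.51e-05). *Xdh* (xanthine dehydrogenase, of purine breakdown) went the other way and rose from 20.8 ± 3.79 to 308.5 ± 3.34 CPM (3.91 ± 0.10 on the log2 scale, adjusted p = 1.28e-14). With 3 tested genes, of which *Nqo1* passed the filter through hNK alone, the list has no common direction.

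Of 15 further genes described as AhR targets in immune or other cells, 6 were tested. None rose, beside 26.4% higher among all tested genes, and 4 fell (66.7%, beside 25.6%). The median was -0.76. Without the filter on low counts 1 gene of the list was called higher. Of its untested genes with at least 10 reads in all, *Ptgs2* had 1 read in hNK and 21 in teNK, *Scin* 4 and 9, and *Il1r1* 6 and 5. *Asb2*, a subunit of a ubiquitin ligase, fell most, from 29.0, 33.4, 39.6 and 43.2 CPM in hNK replicates 1 to 4 to 5.07, 3.24, 4.58 and 7.03 CPM in teNK replicates 1 to 4 (-2.86 ± 0.18, adjusted p = 9.80e-10). *Kit*, the stem cell factor receptor, fell from 265 ± 55.5 to 110.5 ± 18.2 CPM (-1.26 ± 0.14, adjusted p = 9.11e-07). *Gpr15*, a receptor for homing to the colon, fell from 2.50 ± 0.447 to 1.54 ± 0.406 CPM (-0.74 ± 0.25, adjusted p = 0.0230), and *Itgae*, the integrin chain CD103, from 3.75 ± 1.36 to 2.09 ± 0.436 CPM (-0.78 ± 0.25, adjusted p = 0.0173). Both of the last calls depended on single libraries. *Gpr15* was not called without hNK replicate 2 (-0.60), teNK replicate 1 (-0.68) or teNK replicate 4 (-0.60), and its adjusted p ran from 0.0167 to 0.155 over all 14 alternatives. *Itgae* was not called without hNK replicate 4 (-0.55) or teNK replicate 4 (-0.66), with adjusted p from 0.00780 to 0.0650, and without teNK replicate 4 the list had 2 lower genes. The signature cytokine of AhR in innate lymphoid cells, *Il22*, had no read in any library.

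Genes that make or carry tryptophan-derived ligands moved in both directions. Of 15 such genes 6 were tested, 2 rose and 3 fell, with a median of -0.52. Thus 33.3% rose and 50% fell, beside 26.4% and 25.6% of all tested genes. *Slc7a5* and *Slc3a2* encode the chains of LAT1, the transporter of large neutral amino acids that also takes up kynurenine. *Slc7a5* fell from 353, 419, 439 and 458 CPM in hNK replicates 1 to 4 to 4.94, 6.16, 5.62 and 5.66 CPM in teNK replicates 1 to 4 (-6.22 ± 0.11, adjusted p = 4.26e-16). *Slc3a2* fell less, from 302 ± 9.44 to 118 ± 13.1 CPM (-1.36 ± 0.07, adjusted p = 1.92e-10). *Afmid*, the kynurenine formamidase, rose from 6.03 ± 0.803 to 10.4 ± 0.739 CPM, and *Haao*, an enzyme further down the kynurenine route, from 5.37 ± 1.62 to 8.71 ± 1.24 CPM (0.75 ± 0.18, adjusted p = 0.00259). The *Haao* call was lost with all libraries thinned to the smallest (0.52, adjusted p = 0.0596), which left 1 higher gene in the list, and its groups overlapped, with 7.77 CPM in hNK replicate 4 and 6.99 CPM in teNK replicate 3. *Il4i1*, the other gene of the list that fell, went from 3.197 ± 1.365 to 1.576 ± 0.664 CPM (-0.91 ± 0.35, adjusted p = 0.0359). It had 102 reads in hNK and 89 in teNK. The list had 2 lower genes without hNK replicate 3, hNK replicate 4, teNK replicate 1 or teNK replicate 4. The enzymes that open the kynurenine route had almost no reads: *Ido1* and *Ido2* had 1 read each in teNK and *Tdo2* had 2 in hNK.

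*Tiparp* belongs to the PARP family, and the 11 relatives in the list, which is not the whole family, did not follow it as a group. All 11 were tested: 2 rose, 2 fell and 7 were not called, with a median of 0.09. The share was 18.2% in each direction, beside 26.4% higher and 25.6% lower among all tested genes. *Parp3* rose from 10.4 ± 2.48 to 28.4 ± 0.755 CPM (1.45 ± 0.12, adjusted p = 5.15e-08) and *Parp8* from 80.3 ± 7.73 to 99.8 ± 3.40 CPM. *Zc3hav1*, which encodes the antiviral zinc finger protein ZAP, fell from 578 ± 15.3 to 385 ± 7.36 CPM (-0.59 ± 0.06, adjusted p = 3.29e-07). *Parp12* fell from 1.247 ± 0.358 to 0.490 ± 0.308 CPM (-1.22 ± 0.42, adjusted p = 0.0214), a call that was lost without hNK replicate 1 (-1.10), hNK replicate 4 (-1.11), teNK replicate 3 (-1.02) or teNK replicate 4 (-0.9985), with adjusted p from 0.00840 to 0.0663 over the 13 alternatives that tested it. The counts of the list then also moved, to 1 lower gene without any of these 4 libraries and to 4 higher genes without hNK replicate 1. *Parp12* passed the filter on low counts through hNK, where 4 libraries reached its level of 0.783 CPM, against 1 in teNK.

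**Figure D3:**
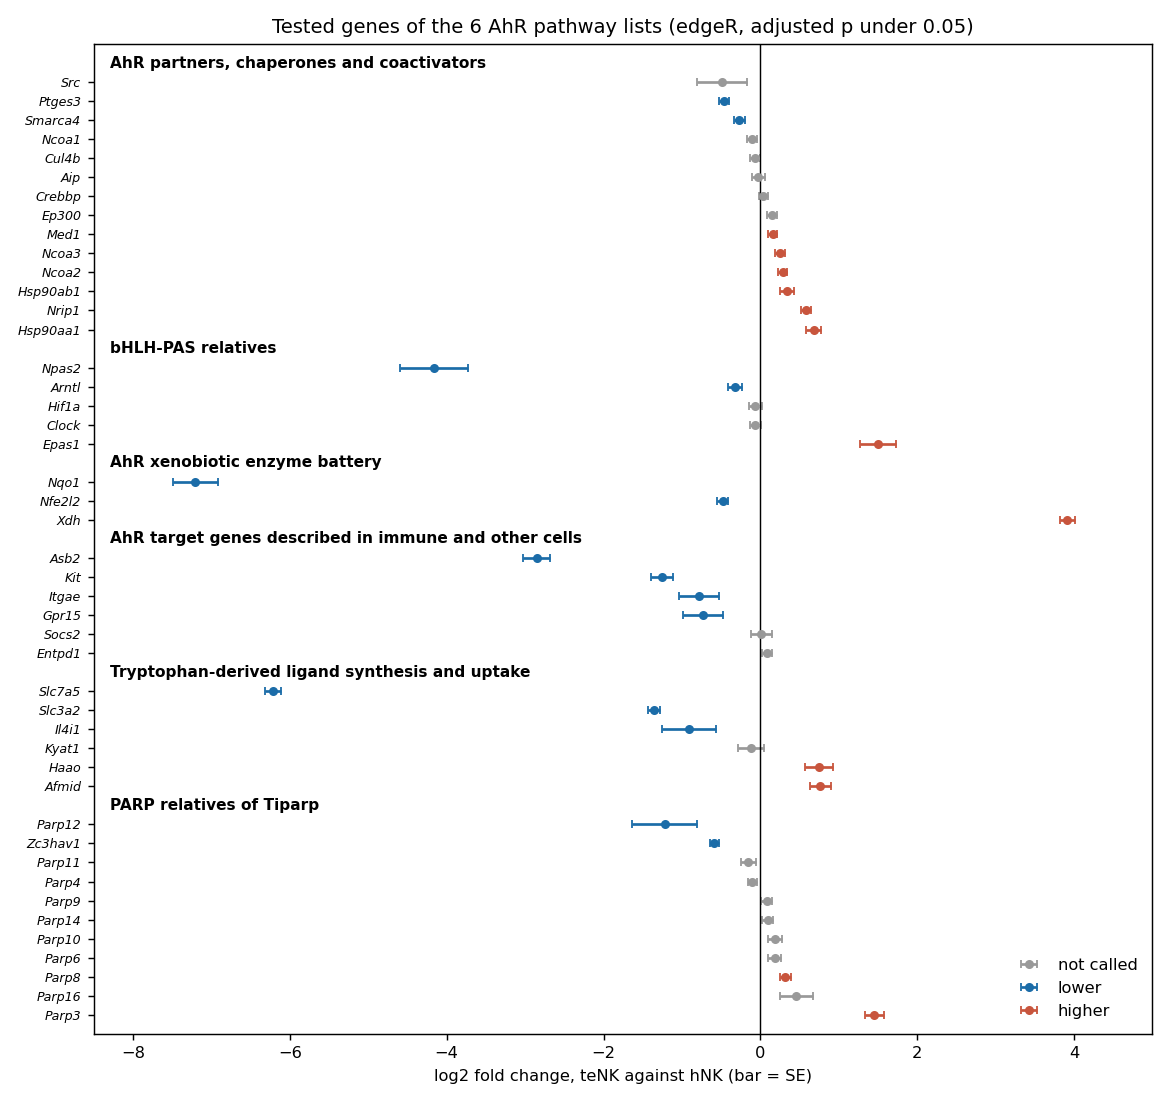
Log2 fold change of teNK against hNK, with its SE, for the 45 tested genes of the 6 lists (red higher, blue lower, grey not called). Most genes lie within 1 unit of 0, and *Nqo1*, *Slc7a5*, *Npas2* and *Asb2* lie far to the left and *Xdh* to the right.

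To place the pathway genes among all others, the genes with the nearest profile over the 8 libraries were taken by the root mean square distance of log2 CPM, each gene centred on its own mean, among 11005 named genes. Nearest to *Ahrr* were *Gpt2* (a mitochondrial alanine aminotransferase, distance 0.324), *Slc7a5* (0.376) and *Pycr1* (an enzyme of proline synthesis, 0.427), where the median distance over all genes was 2.77. *Gpt2* had 1001 reads in hNK and 31 in teNK, and *Pycr1* had 204 and 3. The prior count of 2 in log2 CPM narrows differences at such low counts. *Ahrr*, with 1 read in each teNK library, stood at -2.08 to -1.98 there and at 3.22 to 3.89 in hNK. The fitted log2 fold change was -7.07 ± 0.33 (SE) for *Ahrr*, -5.66 ± 0.21 for *Gpt2*, -6.22 ± 0.11 for *Slc7a5* and -6.54 ± 0.43 for *Pycr1*. *Ahrr* had 4 reads in teNK and *Pycr1* 3, so the order of *Ahrr*, *Slc7a5* and *Pycr1* is uncertain. Nearest to *Tiparp* were *St6galnac4* (a sialyltransferase, 0.0910), *Tgfb1* (transforming growth factor beta 1, 0.0924) and *Atxn1* (ataxin 1, 0.0996), with a median distance of 0.932. *Tgfb1* averaged 559 ± 73.5 CPM in hNK and 153 ± 8.02 CPM in teNK.

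Nearest to *Ahr* were *Pctp* (a phosphatidylcholine transfer protein, 0.0717), *Slc25a15* (the mitochondrial ornithine carrier, 0.101) and *Nfe2l1* (a transcription factor related to NRF2, 0.104), with a median of 0.465. *Nfe2l1* averaged 161 ± 13.99 CPM in hNK and 91.6 ± 1.80 CPM in teNK. Nearest to *Arnt* were the genes *Usp15*, *Arid4b* and *Atf7ip*, all at 0.0343 to 0.0350, with a median of 0.232. With 2 groups of libraries, such a distance is set mainly by the size of the group difference and says nothing on its own of a shared regulator.

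**Figure D4:**
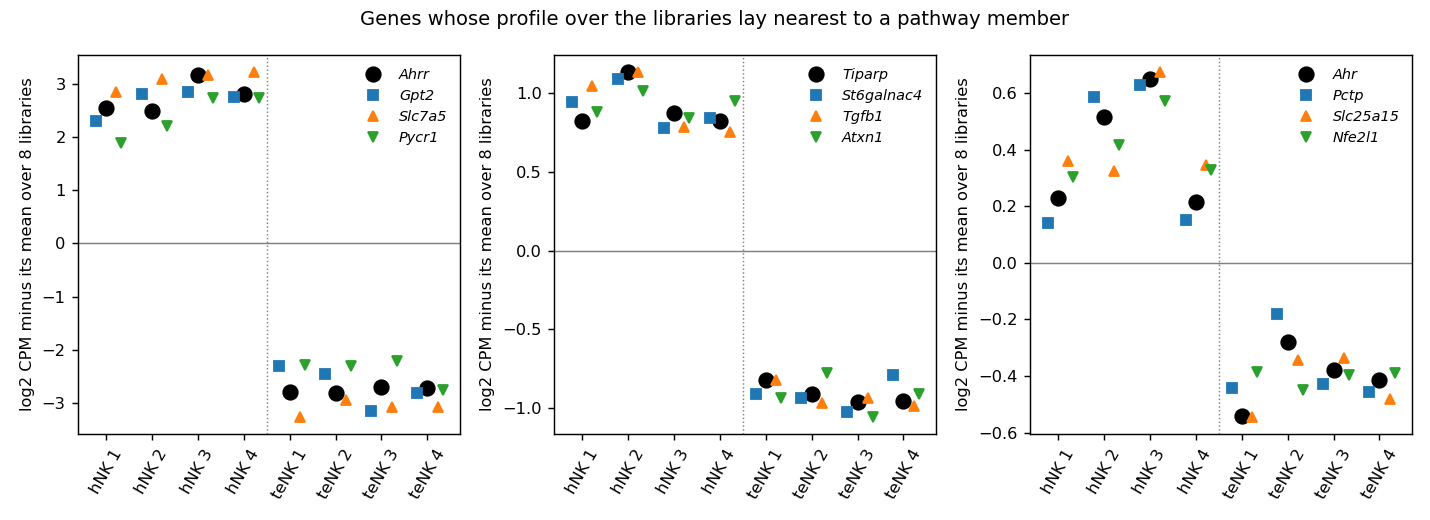
Log2 CPM of *Ahrr*, *Tiparp* and *Ahr* (black) in each of the 8 libraries, minus the gene's mean over the 8, with the 3 nearest genes of each. hNK libraries are left of the dotted line and teNK libraries right of it, and each gene set lies above 0 in all hNK libraries and below 0 in all teNK libraries.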

How the data were processed

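The authors deposited whole-number read counts per Ensembl gene in 1 file for each of the 8 libraries, with no normalization. The tools were HISAT2 2.1.0, SAMtools and HTSeq on GRCm38, per the submitters' processing notes. Per the labels' protocols the kit was TruSeq Stranded mRNA. Which annotation was counted, and whether by strand, is not given in the sources used here. Lines for reads in no gene (32.3% to 41.2% of reads per library) and for ambiguous reads (1.52% to 2.07%) stayed out of library sizes. GENCODE M21 (GRCm38) gave symbols, coordinates and exon lengths for 54809 of 54838 identifiers.

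From the counts, genes were kept with filterByExpr by group (10 reads at the median library size in at least 4 libraries), scaled with TMM and tested in edgeR 4.0.16 (R 4.3.3) with the quasi-likelihood test on group. P-values were Benjamini-Hochberg adjusted over 13903 genes, and genes were called under 0.05. The SE is the log2 fold change divided by the square root of F. Log2 CPM used a prior count of 2, and TPM used merged exon lengths. DESeq2 1.42.0 was an alternative. On simulated counts for teNK against hNK (13903 genes), 38%, 56%, 74% and 100% of 50 genes changed 1.25-, 1.5-, 2- and 4-fold were recovered, with 6 false calls. No other gene was changed there, whereas 51.9% of tested genes were called in the data, so these rates need not hold for this contrast.

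The 6 genes, the lists and the tests were chosen with earlier results of these data known. Genes named are the 6, up to 4 called genes of each list with the smallest adjusted p, and the 3 nearest profiles of each tested member of the 6. *Cyp1a2*, *Aldh3a1*, *Il22*, *Il4i1*, *Ido1*, *Ido2* and *Tdo2* were named after their values were seen. Chi-square comparisons of counts over 12 pairs within groups lay between 3.51 and 11.3 per degree of freedom, so every pair differed beyond sampling noise. Nothing in the labels says that replicates are separate animals, so the spread behind the p-values may be technical.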

Additional observations from a re-analysis of the deposited data

Results flagged for a closer look

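In 77 groups of 4 libraries (the pathway genes and the genes named with them by rule, by group, where values varied), 13 had 1 library far from the other 3 by Dixon's criterion for the gap as a share of the range. Chance flags about 1 in 20 groups. Of the pathway genes, *Tiparp* stood at 217 CPM in hNK replicate 2 against 174.3 to 181 CPM in the others, and *Cyp1b1* at 0.0635 CPM in teNK replicate 2, a single read, against 0 in the others.

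Among genes of the lists, *Arntl* had 47.2 CPM in teNK replicate 2 (39.6 to 40.7 in the others), *Epas1* 10.5 CPM in teNK replicate 4 (6.84 to 7.05), *Haao* 7.77 CPM in hNK replicate 4 (4.29 to 4.84), *Itgae* 5.78 CPM in hNK replicate 4 (2.94 to 3.16) and *Npas2* 1.11 CPM in hNK replicate 2 (1.58 to 1.65). *Slc3a2* had 288 CPM in hNK replicate 1 (305 to 308) and 137 CPM in teNK replicate 1 (109 to 113). Among the nearest profiles, *Nfe2l1* had 88.9 CPM in teNK replicate 2 (92.2 to 92.8), *Pctp* 6.41 CPM (5.27 to 5.38) and *Usp15* 196 CPM (177 to 179) in the same library, and *Slc25a15* 9.56 CPM in hNK replicate 3 (7.46 to 7.65). teNK replicate 2 held 5 of the 13, but these flags are not all independent. That of *Cyp1b1* is 1 read against 0, which always gives the largest gap share. *Pctp* and *Usp15* were chosen for profiles near *Ahr* and *Arnt*, which were themselves highest within teNK in replicate 2 (24.1 and 104.5 CPM).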

How the results depend on the processing

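The log2 fold changes of *Ahr*, *Arnt*, *Ahrr* and *Tiparp* are descriptions, since these genes were selected on them, and their values over 14 alternative fits are no support for them. Without 1 library at a time they ran from -0.88 to -0.74 for *Ahr*, 0.0077 to 0.0801 for *Arnt*, -7.16 to -6.93 for *Ahrr* and -1.87 to -1.76 for *Tiparp*. Of the 22 genes named from the lists for the smallest adjusted p, 18 kept direction and call in every alternative that tested them, and none reversed. *Gpr15* was also not called by DESeq2 (-0.72) and, like *Haao* (0.52), with all libraries thinned to the smallest (-0.55). The number of genes called over all genes stayed within 5756 (thinned) to 7938 (no filter), around 7222.

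Counts of list genes that moved by over 1.5 times were few. Without a filter on low counts, higher genes numbered 2 among xenobiotic enzymes, 1 among immune targets and 4 among tryptophan genes. After thinning, lower genes numbered 1 among bHLH-PAS genes and 1 among PARP genes, and higher genes 1 among tryptophan genes, with fewer reads by construction. With 1 library left out at a time, lower immune targets ran from 2 to 4, higher PARP genes from 2 to 4 and lower PARP genes from 1 to 2.

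The longest transcript in place of merged exons gave 47.7 and 51.2 TPM for *Arnt*, 4.84 and 0.0318 TPM for *Ahrr* and 97.3 and 28.3 TPM for *Tiparp* in hNK and teNK. The longer motif was in 5.07% of promoter windows. Replicate numbers share no stated source, and libraries with the same number did not deviate together (r = 0.0450, -0.107, 0.145 and 0.0182 over genes, with 2 of 4 hNK libraries nearest their own number). With the replicate number as a block, 6982 genes were called in place of 7222, and *Ahr*, *Arnt*, *Ahrr* and *Tiparp* stood at -0.81, 0.05, -7.07 and -1.83. Depth limits *Cyp1a1*, *Cyp1b1*, *Ahrr* in teNK and 21 list genes.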

Other observations

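Of the list genes with too few reads to be tested, 10 had at least 10 reads in all, and they are given here by their reads, with ratios per unit of library size (teNK over hNK) where both groups had reads and the interval left out 1. These exact 95% intervals cover counting error only, not the spread between libraries. *Kynu* (kynureninase) had 1 read in hNK and 27 in teNK (ratio 17.3, interval 2.85 to 709), and *Kmo* (kynurenine monooxygenase) had 4 and 25 reads (4.01, 1.38 to 15.9). *Ptgs2* (cyclooxygenase 2) had 1 and 21 reads (13.5, 2.17 to 557). The summed myeloid genes stood at 0.165 to 0.915 CPM in hNK and 7.24 to 16.0 CPM in teNK, and the part of such cells in these reads was not tested. *Arnt2*, the relative of *Arnt* best known from neurons, had 16 reads in hNK and 2 in teNK (0.0802, 0.00894 to 0.341), and *Kyat3* (a kynurenine aminotransferase) 25 and 19 (0.487, 0.254 to 0.922). *Ddc* had 24 and 44 reads, *Scin* 4 and 9, and *Il1r1* 6 and 5. *Ugt1a6a* had no read in hNK and 19 in teNK, and *Ugt1a6b* 2 and 15 (4.81, 1.12 to 43.4). These last genes share exons with each other and with the rest of the *Ugt1a* locus, so the assignment of their reads is uncertain.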
